A study of Mus musculus with 2 samples.

Results

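The interleukins and the tumour necrosis factor (TNF) superfamily, with their receptors, were examined in RNA-seq libraries of mouse small intestine. Members were the protein-coding genes whose mouse symbol begins with Il and a digit, Tnfsf or Tnfrsf. The rule took 114 of 21474 protein-coding genes measured, namely 51 ligands, 61 receptors and 2 genes that are neither (Il18bp, a soluble binder of IL-18, and Il4i1, an enzyme induced by IL-4). The tissue came from C57BL/6J mice aged 8 weeks, males and females of the same litters pooled, with no genetic change or treatment named, and the labels give the health state as unknown. They name neither the segment of the intestine nor the number of animals. The 2 libraries are numbered as biological replicates 1 and 2 of 1 group, so there is no comparison between conditions and no test. Their separate biosample entries share a strain-level donor entry, and nothing else states how the replicates were related. Each value is therefore given for both libraries, and SD is the spread of those 2 values.

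Interleukins and TNF superfamily ligands are signals passed between immune, epithelial and stromal cells. Most interleukins are secreted and act on receptors of several chains, while TNF superfamily ligands are made at the cell surface and act as trimers on single-chain receptors. In the intestine, the IL-22 and IL-17 receptors are known for epithelial defence, and the ligands BAFF and APRIL for the survival of B cells and of the plasma cells that make IgA.

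Totals were 45472946 and 45822403 expected counts, of which members took 0.131% and 0.240%. All 6 epithelial markers listed were detected, with summed levels of 2062 and 6681 TPM (a level per transcript length, scaled to a fixed total per library). The libraries differed in other tissue: a list of 16 exocrine pancreas genes had summed levels of 272162 and 1791 TPM in replicates 1 and 2, and a list of stomach genes 19753 and 51.5 TPM. In the same tables the median gene stood 0.66 log2 units higher in replicate 2. Differences between replicates are given relative to that median gene. In bulk tissue, fewer cells of a type and less RNA per cell cannot be told apart.

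Receptors were found far more often than ligands. The call of detected required at least 1 TPM in each of the 2 libraries, which held for 49.3% of all protein-coding genes. Of the members, 48 of 114 (42.1%) were detected: 33 of 61 receptors (54.1%) and 13 of 51 ligands (25.5%). By family, 15 of 20 TNF superfamily receptors were detected, 6 of 12 TNF superfamily ligands, 18 of 41 interleukin receptors and 7 of 39 interleukin ligands. The remaining genes included 1 ligand, Il7, and 7 receptors that reached a TPM of 1 in replicate 2 and not in replicate 1.

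Median levels showed the same order. The median ligand was at 0.13 and 0.16 TPM, the median receptor at 1.52 and 2.72 TPM, and the median protein-coding gene at 1.08 and 1.58 TPM. On the log2(TPM + 1) scale the receptor median exceeded the ligand median by 1.16 and 1.68 (1.42 ± 0.37, SD, n = 2). That difference was 3.13 with a pseudocount of 0.1 and 0.64 over members with a mean TPM of at least 1. Summed over genes, receptors held 9.02 and 16.4 times the TPM of ligands (12.7 ± 5.19, SD, n = 2).

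**Figure D1:**
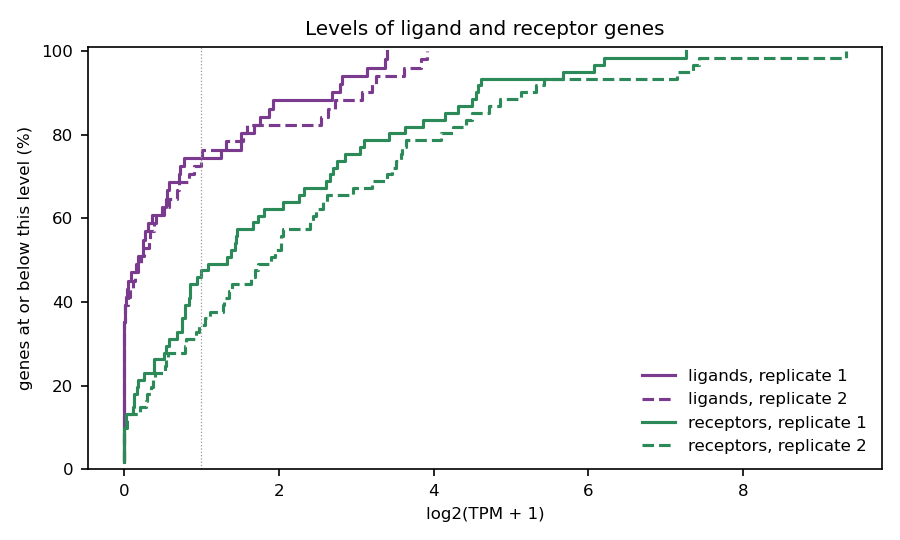
Cumulative percent of the 51 ligand and 61 receptor genes (y axis) at or below each level in log2(TPM + 1) (x axis), one line per library; the dotted line marks 1 TPM. The ligand lines rise first in both libraries, with the median ligand at 0.13 and 0.16 TPM and the median receptor at 1.52 and 2.72 TPM.

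Il17rc, which encodes a chain of the receptor for IL-17A and IL-17F, was the highest member. The gene lies at chr6:113471427-113483140 on the plus strand (GRCm38). Its levels in replicates 1 and 2 were 153 and 641 TPM (397 ± 345, SD, n = 2), from 11709 and 39565 expected counts. It ranked 469th and 197th among protein-coding genes and supplied 26.3% and 42.8% of all receptor TPM.

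By total TPM the next 3 receptors kept the same order in both libraries, although the ranges of neighbours overlapped. Tnfrsf1a, the main receptor for TNF, was at 72.3 and 172 TPM. Tnfrsf14, the receptor HVEM that binds LIGHT, was at 66.6 and 162 TPM. Il22ra1, the IL-22-binding chain of the IL-22 receptor, was at 49.95 and 139.9 TPM. Over transcripts of at least 500 nt, Tnfrsf14 was at 49.05 and 105.89 TPM, below Il22ra1 in both libraries. With Il17rc, these 4 genes made up 58.7% and 74.5% of receptor TPM, and the lower value of Il22ra1 exceeded the higher value of Tnfrsf11a.

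Below them, receptors from several families lay close together. Tnfrsf11a, the receptor RANK, was at 21.5 and 39.1 TPM. Il10rb, the chain shared by the IL-10 and IL-22 receptors, was at 13.5 and 41.9 TPM, and Il4ra, which serves IL-4 and IL-13, at 18.9 and 34.0 TPM. The ranges of these genes overlapped, so their order was not resolved.
Other receptors lay near 20 TPM in both libraries. Tnfrsf12a, the receptor of TWEAK, was at 22.3 and 21.6 TPM, and Il11ra1, which binds IL-11, at 22.9 and 20.4 TPM; the latter overlaps the gene Galt, so its reads may be shared. Tnfrsf21 (DR6) was at 16.7 and 18.1 TPM. Il15ra, the IL-15-binding chain, was at 23.4 and 27.9 TPM, but most of this came from a transcript of 405 nt, and over transcripts of at least 500 nt its level was 3.93 and 4.89 TPM.
Receptors known from lymphocytes spanned a wide range. Tnfrsf13b, the receptor TACI of B cells, was at 9.72 and 25.2 TPM. Of this, 4.24 and 14.0 TPM came from a transcript that is not annotated as protein-coding. Tnfrsf17, the receptor BCMA of plasma cells, was at 3.80 and 9.99 TPM. The chains Il2rg and Il2rb, shared among IL-2 and IL-15 receptors, were at 5.71 and 11.5 TPM and at 6.21 and 10.9 TPM. Il7r was at 0.09 and 0.32 TPM, and Il23r at 0 and 0.03 TPM.

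No ligand reached the level of the 4 leading receptors. Tnfsf13b, which encodes BAFF, was at 7.79 and 14.0 TPM. Tnfsf12, which encodes TWEAK, was at 9.57 and 11.2 TPM, and Il34, a ligand of the CSF1 receptor, at 6.06 and 13.3 TPM. Of the Il34 level in replicate 2, 2.70 and 2.26 TPM came from transcripts of 515 and 309 nt not annotated as protein-coding. Both of those transcripts were at 0 TPM in replicate 1. Tnfsf13, which encodes APRIL, was at 9.32 and 5.62 TPM.
From Tnfsf13b down to Il16, the ninth ligand, each neighbouring pair overlapped and changed order between the libraries, so no leading ligand stood apart. Il33, an alarmin of stromal and epithelial cells, was at 5.41 and 7.40 TPM. Il15, which sustains intraepithelial lymphocytes, was at 2.39 and 8.53 TPM. Tnfsf10, which encodes TRAIL, was at 2.80 and 8.25 TPM, and Il17d at 5.93 and 4.81 TPM.
The ligands named next were lower, and Il17a, Il13, Il10 and Il22 stayed below 1 TPM in both libraries. Il18 was at 1.39 and 1.00 TPM, from 33 and 19 counts. Il17a was at 0.50 and 0.13 TPM, from 24 and 5 counts, Il13 at 0.24 and 0.33 TPM, Il10 at 0.02 and 0.05 TPM, and Il22 at 0 and 0.01 TPM. Tnfsfm13, a readthrough of Tnfsf12 and Tnfsf13, was at 1.85 and 1.49 TPM and overlaps both, so reads cannot be divided among these 3 genes with certainty.

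**Figure D2:**
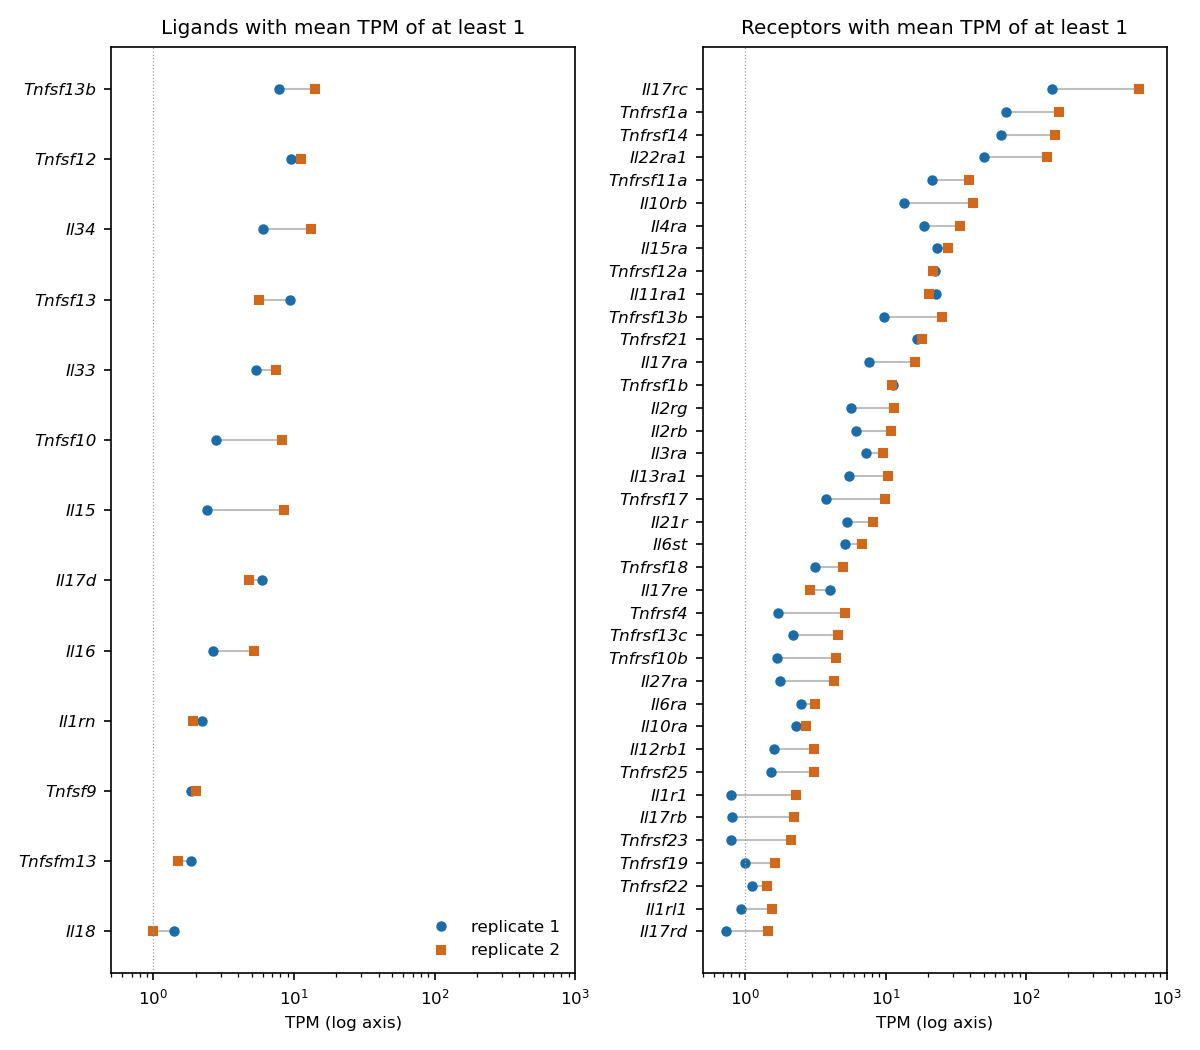
TPM on a log axis for each ligand (left) and receptor (right) with a mean TPM of at least 1, ordered by mean; circles are replicate 1, squares replicate 2, and the dotted line marks 1 TPM. Il17rc lies farthest right at 153 and 641 TPM, and no ligand exceeds 14.0 TPM.

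No count in either library was assigned to 19 members. The 15 ligands among them were Il3, Il5, Il6, Il9, Il17f, Il19, Il20, Il24, Il31, Tnfsf4 and the IL-1 relatives Il1f5, Il1f6, Il1f8, Il1f9 and Il1f10. The 4 receptors were Il5ra, Il13ra2, Il20ra and Il1rapl2. At this depth 3 counts, the limit that a count of 0 allows, would be 0.0237 to 0.196 TPM in the first library and 0.0304 to 0.239 TPM in the other. These limits cover counting error only and use 1 length per gene. The deposited upper credibility bounds of some of these genes were higher, up to 0.636 and 0.725 TPM for Il1f5.

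Of 9 IL-1 family receptors, 0 were detected in both libraries and 2 reached 1 TPM in replicate 2 only, while 3 of 10 IL-1 family ligands were detected. The receptors counted include the decoy Il1r2 and the neuronal relatives Il1rapl1 and Il1rapl2. The ligands detected were Il33, Il18 and Il1rn, and Il1rn encodes an antagonist. Il18 lay at the threshold in replicate 2, at 1.00 TPM. The receptor call depends on replicate 1. Without the pancreas and stomach lists, detected receptors of all families rose from 33 to 38, with Il1r1 and Il1rl1 among those gained. Il1r1, the signalling IL-1 receptor, was at 0.79 and 2.31 TPM, and its partner Il1rap at 0.31 and 0.46 TPM. Il1rl1, the receptor of IL-33, was at 0.93 and 1.56 TPM. The 6 receptor genes side by side at chr1:40074079-40551705 (Il1r2, Il1r1, Il1rl2, Il1rl1, Il18r1 and Il18rap) included 0 genes detected in both libraries as deposited. They include Il1r1 and Il1rl1, the 2 that reached 1 TPM in replicate 2. Il17rc and its neighbour Il17re, whose product serves IL-17C, share chr6:113458484-113483140, and Il17re was at 4.00 and 2.88 TPM.

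Ligands and receptors were then set side by side in 32 textbook pairs. All listed receptor chains were detected without the ligand in 16 pairs, both sides in 5, the ligand alone in 3, and neither side fully in 8. The lowest receptor chain exceeded the ligand in both libraries in 22 pairs, and the ligand exceeded it in 7. These counts depend on the chains listed, and some chains, such as Il2rg, stand in several pairs. Tnfsf13b was set beside Tnfrsf13c and not Tnfrsf13b. Il2 was set beside Il2rb and Il2rg without Il2ra, which was at 0.09 and 0.27 TPM.
The 5 pairs with both sides were Il15 with Il15ra, Il2rb and Il2rg, Tnfsf10 with Tnfrsf10b, Tnfsf12 with Tnfrsf12a, Tnfsf13 with Tnfrsf17, and Tnfsf13b with Tnfrsf13c. The 3 ligands whose listed receptor chains were not all detected were Il18, Il33 and Tnfsf9. Pairs with the receptor alone included Il22 with Il22ra1 and Il10rb, Il17a with Il17ra and Il17rc, and Tnfsf14 with Tnfrsf14. For the last, the ligand was at 0.63 and 0.79 TPM beside 66.6 and 162 TPM for the receptor.

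**Figure D3:**
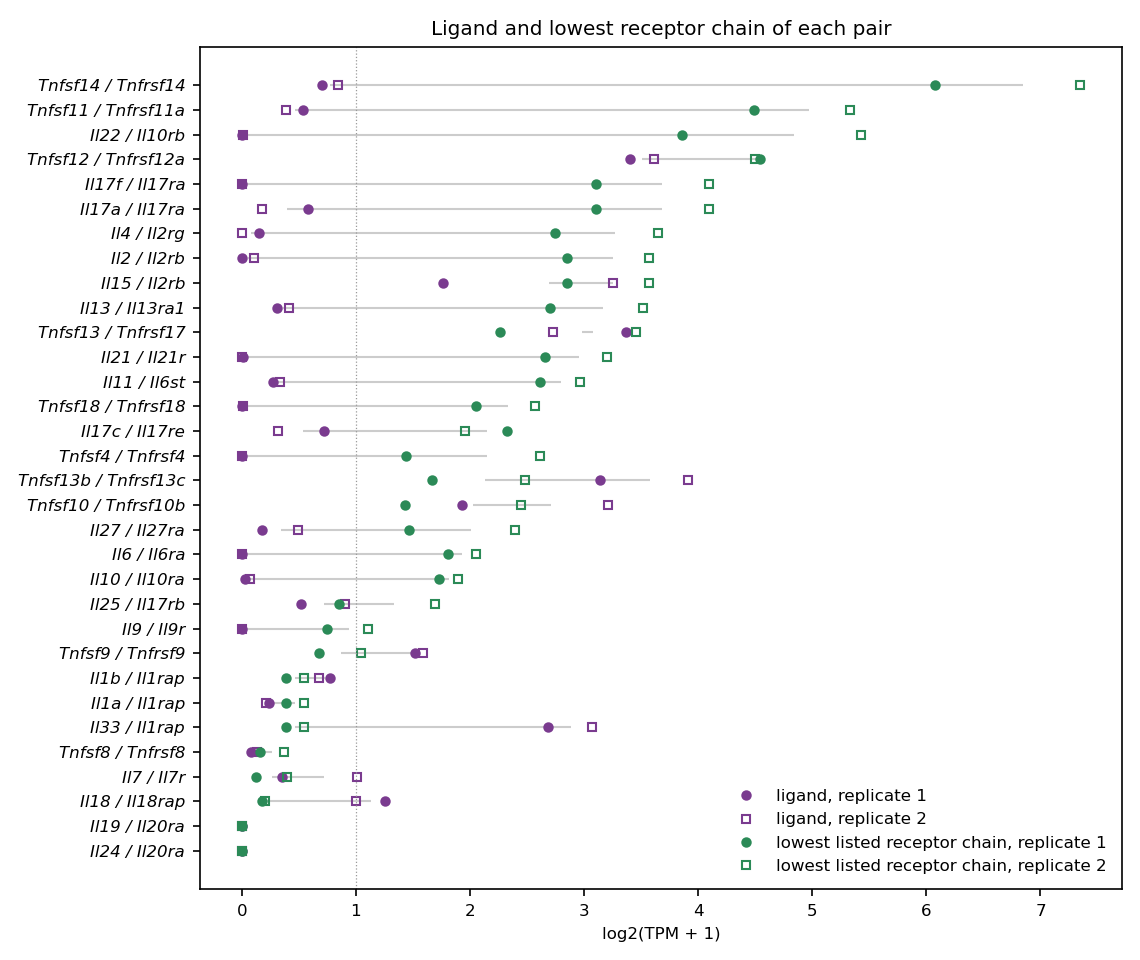
Level in log2(TPM + 1) of the ligand (purple) and of its lowest listed receptor chain (green) in 32 pairs; filled circles are replicate 1, open squares replicate 2, grey lines join the means and the dotted line marks 1 TPM. In 22 pairs the receptor chain lies right of the ligand in both libraries.

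Promoter sequence was read because ligands and receptors differed so much in detection. RefSeq (GRCm38.p6) gave 250 bases upstream of the start for 90 members (38 ligands, 50 receptors and both of the other genes) and 16317 protein-coding genes. The following 5 were chosen after their values were seen: the receptors Il17rc (chr6:113471205-113471454) and Il22ra1 (chr4:135727909-135728158), Tnfrsf11a (chr1:105780473-105780722), and the ligands Il6 (chr5:30012864-30013113) and Il17a (chr1:20730655-20730904), which were below 1 TPM in both libraries. All lie on the plus strand, and capitals mark CG dinucleotides.
Il17rc: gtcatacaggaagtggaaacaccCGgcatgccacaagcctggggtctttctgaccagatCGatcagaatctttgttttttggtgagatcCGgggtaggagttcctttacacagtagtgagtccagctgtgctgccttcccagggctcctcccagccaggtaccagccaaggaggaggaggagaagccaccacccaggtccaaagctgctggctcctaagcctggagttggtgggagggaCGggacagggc
Il22ra1: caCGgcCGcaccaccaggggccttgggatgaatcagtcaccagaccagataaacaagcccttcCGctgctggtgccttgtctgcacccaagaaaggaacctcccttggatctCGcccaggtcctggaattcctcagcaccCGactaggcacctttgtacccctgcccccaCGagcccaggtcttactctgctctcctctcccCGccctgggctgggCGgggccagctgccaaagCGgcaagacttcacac
Tnfrsf11a: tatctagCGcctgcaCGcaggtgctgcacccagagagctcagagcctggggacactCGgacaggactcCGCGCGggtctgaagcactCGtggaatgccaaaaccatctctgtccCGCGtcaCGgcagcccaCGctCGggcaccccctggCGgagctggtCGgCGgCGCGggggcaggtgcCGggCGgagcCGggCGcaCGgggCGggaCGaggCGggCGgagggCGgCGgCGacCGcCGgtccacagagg
Il6: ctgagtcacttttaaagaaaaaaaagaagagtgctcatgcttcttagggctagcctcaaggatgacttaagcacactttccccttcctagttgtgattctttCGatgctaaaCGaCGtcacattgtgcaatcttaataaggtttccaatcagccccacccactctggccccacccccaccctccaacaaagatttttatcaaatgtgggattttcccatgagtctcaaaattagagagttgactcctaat
Il17a: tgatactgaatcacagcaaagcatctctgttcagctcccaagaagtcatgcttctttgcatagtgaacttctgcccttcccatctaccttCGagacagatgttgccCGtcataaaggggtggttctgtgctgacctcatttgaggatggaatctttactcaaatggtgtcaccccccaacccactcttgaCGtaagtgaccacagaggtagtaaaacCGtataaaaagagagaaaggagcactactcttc

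Counts of CG were 4 for Il17rc, 9 for Il22ra1, 31 for Tnfrsf11a, 3 for Il6 and 4 for Il17a. At least 10 were present in 1 of 38 ligand promoters (2.63%), 18 of 50 receptor promoters (36.0%) and 53.2% of all promoters. Detected genes had such promoters more often in the whole table (74.4% against 30.9%), and among receptors the shares were 44.0% of those detected and 28.0% of the others. Il17rc, the highest member, was among those with few.
The TATA box letters TATAAA, on either strand, were in 12 ligand promoters (31.6%), Il17a included, in 4 receptor promoters (8.0%) and in 13.1% of all. Letters of the NF-kB type, GGNNTTTCC on either strand, were in 12 of 90 members (13.3%), Il6 and Il17rc among them, and in 5.65% of all promoters. A form with a further G at its 5′ end was searched first; it was in 8 members (8.89%) and 1.64% of all. Both motifs are matches of letters and show no binding.

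Among the 31 members with a mean TPM of at least 5, 12 had a single transcript and 19 had several. For 7 of those 19, 1 transcript held at least 90% of the gene's TPM in both libraries. The highest transcript of Tnfrsf13b gave 43.7% and 55.7%, the lowest mean share of the 19. It is annotated as a processed transcript and not as protein-coding. In replicate 2 the shares of Il11ra1 (52.7%) and Tnfrsf11a (53.5%) were lower. Il17rc drew 62.7% and 61.7% from a transcript of 1759 nt (96.0 and 396 TPM) and a further 34.2 and 174 TPM from one of 2302 nt. The 1759 nt transcript, and one of 426 nt that gave 9.83% and 7.89%, are in the deposited table and not in GENCODE M21.
The division of Il17rc hardly moved between the libraries although its level did. Taking only each gene's highest transcript, the widest shift was in Tnfsf10, from 74.3% in replicate 1 to 91.9% in replicate 2. Among lesser transcripts, one of Il34 of 515 nt went from 0% to 20.4%. Tnfrsf11a drew 64.9% and 53.5% from its transcript of 5027 nt, and 34.3% and 44.3% from one with a retained intron.

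Few members differed by over 2-fold between the replicates. After subtracting the median gene, 53 members with a mean TPM of at least 1 had a median log2 ratio, replicate 2 over replicate 1, of 0.06; it was -0.45 for 13 ligands and 0.09 for 38 receptors. With TMM-scaled counts the median of all 53 was -0.018. Over 2-fold higher in replicate 2 was 1 member, Il17rc at 1.40, where 5.03% of all such genes were. Over 2-fold higher in replicate 1 were 2 members, Tnfsf13 at -1.30 and Il17re at -1.03, where 6.32% of all were.
Before centring, the deposited credibility intervals lay apart with replicate 2 above for 38 of 53 members (73.5% of all such genes) and with replicate 1 above for 2 (6.37% of all). Both counts stood near the share of all genes.

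Among the other receptors relatively higher in replicate 2, Il10rb was at 0.90, Il22ra1 at 0.80, Tnfrsf14 at 0.60 and Tnfrsf1a at 0.57. On the same centred log2 scale all 6 epithelial markers were higher in replicate 2, by 0.77 to 1.55 with a median of 0.99. Their part in the receptor differences was not tested. Tnfrsf13b was at 0.62 and Tnfrsf17 at 0.53. The 4 B-cell markers with a mean TPM of at least 1 had a median of 0.53. Ms4a1 and Cr2, the rest of that list, were at -0.32 and -0.45, each below 1 TPM in both libraries. The whole B-cell list had summed levels of 32.4 and 74.8 TPM. The plasma-cell list, which holds Tnfrsf17 itself, had a median of 0.13.
Members relatively higher in replicate 1, beside Tnfsf13 and Il17re, included Il17d at -0.92, Il11ra1 at -0.82, Tnfrsf12a at -0.71 and Tnfrsf1b, a second TNF receptor, at -0.70. Before centring, the credibility intervals of Il17d, Il11ra1, Tnfrsf12a and Tnfrsf1b overlapped between the libraries. The fibroblast markers had a median of -0.58, with 5 of 6 below 0 and sums of 122 and 135 TPM. The macrophage and dendritic cell markers had a median of -0.41, with 8 of 9 below 0 and sums of 267 and 299 TPM. The T-cell markers had a median of -0.36, with 8 of 9 below 0 and sums of 35.67 and 44.99 TPM. The tuft cell markers with a mean TPM of at least 1 had a median of -0.45, with 4 of 4 below 0 and sums of 17.7 and 17.1 TPM over the whole list, which holds Il25. The part of these lists in the differences was not tested.

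**Figure D4:**
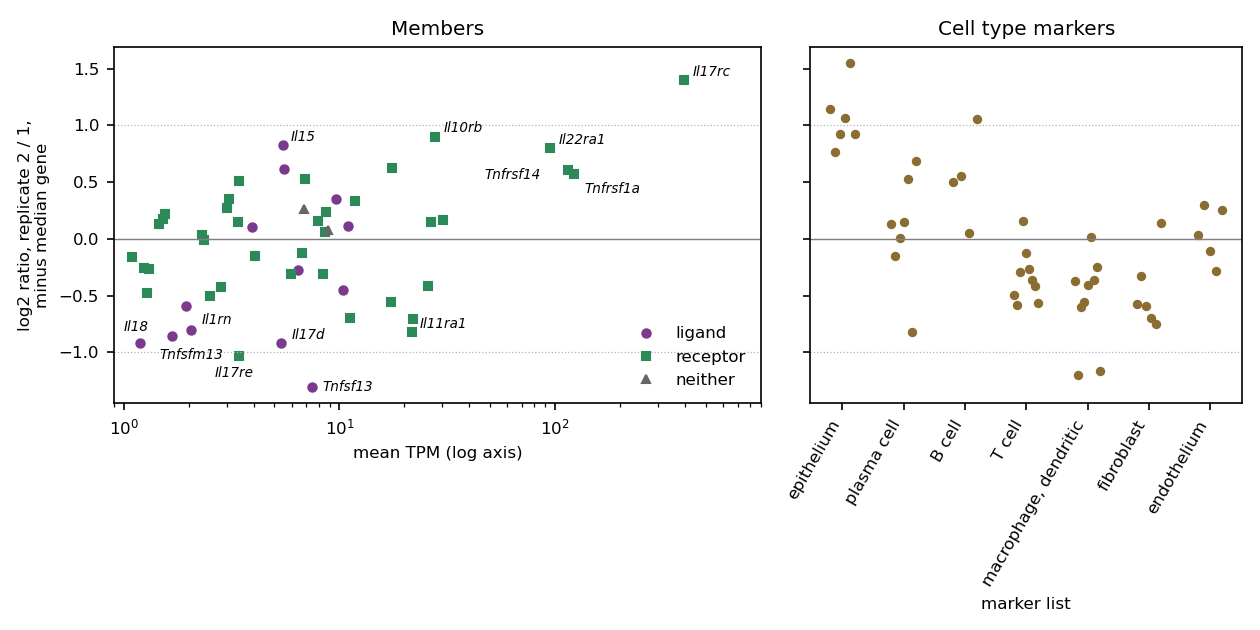
Left, log2 ratio of replicate 2 over replicate 1 minus the median gene (y axis) against mean TPM on a log axis for 53 members; right, the same ratio for markers of 7 cell types with a mean TPM of at least 1, one point per gene, with dotted lines at 2-fold. Il17rc lies highest among members at 1.40 and the epithelial markers span 0.77 to 1.55. The exocrine pancreas and stomach lists are not shown.

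Downstream genes were counted in chosen lists, beside the 49.3% of all protein-coding genes that were detected. The lists are short and were chosen by name, so no difference from that share is read. Of 11 Janus kinases and STATs, 10 were detected, led by Stat3 at 44.5 and 87.5 TPM and Stat6, which acts for IL-4 and IL-13, at 36.7 and 82.9 TPM. Of 8 SOCS feedback inhibitors, 6 were detected, with Socs1 at 22.7 and 69.6 TPM. Of 13 TNF receptor adaptors, 13 were detected, and of 9 IL-1 and IL-17 adaptors 8, among them Traf3ip2, the adaptor of IL-17 receptors, at 12.8 and 21.7 TPM. Of 9 NF-kB genes, 8 were detected, with Nfkbia at 75.9 and 112 TPM.
Relatives named outside the symbol rule were also counted. In the TNF family, 5 of 8 further receptors (62.5%) were detected, led by Ltbr at 98.1 and 137 TPM. Of 7 further ligands 1 (14.3%) was detected, Ltb at 21.03 and 26.96 TPM. Tnf itself was at 0.76 and 1.48 TPM. Among further cytokine genes, 8 of 9 receptors (88.9%) and 5 of 8 ligands (62.5%) were detected. The share of all protein-coding genes was 49.3%. Chosen lists of 7 to 9 genes, those of the TNF family included, are too short to read a difference from that share or from each other. The median further cytokine ligand was at 2.51 and 4.64 TPM and the median further cytokine receptor at 6.11 and 6.67 TPM.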

How the data were processed

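Per the labels, poly(A)+ RNA longer than 200 nt, cleared of rRNA, was sequenced with spike-ins as strand-specific read pairs (76 nt). Deposited text names mm10 and annotation release M4; the aligner is not given in the sources used here. Nor is the quantifier, but column names match RSEM output. The authors deposited expected counts (estimated fragments, not whole), TPM over all features, TPM credibility bounds of unstated level, and the percent of each gene's TPM from each transcript. GENCODE M21 (GRCm38) supplied symbols and coordinates by stable identifier (42462 of 43346 genes, 98.0%).

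Detection required at least 1 TPM in each library. Ratios are log2((TPM + 1)/(TPM + 1)) for genes with a mean TPM of at least 1, less the median gene, which understates low genes. TMM factors (edgeR 4.0.16, R 4.3.3) used expected counts rounded to whole numbers. The ratio code was tested on simulated data. Python 3.11.15 with pandas 2.3.3 was used. Named were the 12 highest ligands, the 16 highest receptors, pair members, extreme ratios at a mean TPM of at least 5, members without counts and divided isoforms, with up to 4 genes per list; not all of them are printed. Promoters are 250 RefSeq bases before each start. Members and lists were chosen with earlier results of these data known. Limiting genes to transcripts of at least 500 nt and the letters of the NF-kB type motif were chosen after seeing the data.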

Additional observations from a re-analysis of the deposited data

How the results depend on the processing

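At a TPM minimum of 5, 5 ligands, 20 receptors and 1 full pair were detected. The receptor minus ligand median became 3.13 with a pseudocount of 0.1 and 0.64 over members with a mean TPM of at least 1. The median replicate ratio of members became 0.161 without a filter on low values, -0.018 with TMM-scaled counts, a reversed sign, and 0.72 without centring. Members over 2-fold higher in replicate 2 and in replicate 1 numbered 2 and 5 with a pseudocount of 0.1, 12 and 0 without the filter, 2 and 1 with posterior mean TPM, and 12 and 0 without centring, against 1 and 2. The cause of these changes was not tested. Using either library alone gave 13 to 14 ligands, 33 to 40 receptors, 5 to 6 full pairs, a median difference of 1.16 to 1.68 and a summed log2 ratio of 3.17 to 4.03. Over the remaining alternatives, the relatives added included, detected ligands numbered 11 to 19, detected receptors 32 to 46 and full pairs 5 to 7. The NF-kB type motif was in 12 members, and in 8 with a further G. The median gene shifted by 0.66 log2 units in deposited TPM, 0.25 without the pancreas and stomach lists and 0.01 with TMM. No paired analysis was possible because the 2 libraries form 1 group. With 2 libraries no test could be made, and members with few counts, such as Il18 with 33 and 19, are limited by depth.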
